A study of Mus musculus with 22 samples.

Results

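The 6 libraries described here hold RNA of wild-type mouse CD8+ T cells during the second day of stimulation in culture, 3 libraries taken at 48 h and 3 taken at 24 h, out of 22 libraries in the series. They were chosen by their labels alone. The 3 mice belong to the line Tcaim KI Cd4Cre and carry the genotype label wtcre, called wild type here, and the labels do not spell the genotype out further. Mice 1 and 3 were male and mouse 5 was female, and the numbers are those of the experiments, with 1 mouse in each. Cd4Cre names a Cre recombinase under the Cd4 promoter, which acts in developing T cells of both the CD4 and the CD8 lineage. Naive CD8+ T cells of spleen and lymph nodes, enriched by magnetic depletion, were stimulated with plate-bound anti-CD3 (2 µg/ml) and soluble anti-CD28 (1 µg/ml). Each mouse gave a naive, a 24 h and a 48 h library, so that 48 h was set against 24 h within mice. The series, going by its title, concerns Tcaim, mitochondria-ER contacts and the build-up of anabolism and effector function. Libraries of knock-in mice of the same line (genotype label hocre, called KI here, 3 mice treated in the same way) enter only where a change is set beside that of the wild type.

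A naive T cell is a small resting cell. When the antigen receptor and CD28 are engaged together it first enlarges, builds ribosomes and switches on the enzymes of DNA replication, and it then divides repeatedly within days while acquiring the granules and cytokines of an effector cell. The passage through mitosis, the start of granzyme and interferon-gamma production, and the supply of membrane lipid for daughter cells belong to this later phase. In bulk RNA, a lower share of cells in a state and less RNA per cell in that state cannot be told apart.

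Total counts ran from 71870326 to 87452836 at 24 h and from 75983549 to 85714163 at 48 h. Of 46603 genes 21183 passed the filter on low counts, and values are given as CPM, counts scaled to a common library size, in mice 1, 3 and 5, in that order. A gene was called when the adjusted p of edgeR's quasi-likelihood test, with Benjamini-Hochberg adjustment over all tested genes, was under 0.05. A call is said to hold when it was also made in each of the 3 fits that left out 1 wild-type mouse. Of the 313 called genes that are members of the gene lists used here or are named by rule, 82 held, and most of the others were lost without mouse 1. The 82 include the pseudogene Gm13237, which was not tested in the fit without mouse 1. The label was checked with Cd8a, which had 1006, 971 and 868 CPM at 24 h and 770.2, 1001 and 711 CPM at 48 h, and with Cd4, which had 8.49, 20.1 and 28.02 CPM and 11.1, 32.5 and 30.5 CPM. Markers of CD8 T cells summed to 3536 to 3838 CPM at 24 h and 2743 to 3485 CPM at 48 h, with 1 of 7 called lower. Those of CD4 T cells summed to 32.32 to 54.06 CPM and 34.56 to 64.25 CPM, with 1 of 4 called higher. Of all tested genes 4.23% were called lower and 4.67% higher. Markers of B cells summed to 864 to 1531 CPM at 24 h and 691 to 1240.0 CPM at 48 h, led by Ighm with 592, 563 and 764 CPM and 471, 413 and 567 CPM, with 1 of 11 called lower (background 4.23% of all tested genes). Markers of NK cells summed to 1.24 to 5.45 CPM and 1.01 to 3.07 CPM, with 4 of 6 called lower, and those of myeloid cells to 32.3 to 67.5 CPM and 30.0 to 59.5 CPM, with none of 9 called. Tcaim itself had 9.86, 8.38 and 10.1 CPM at 24 h and 9.20, 11.98 and 9.03 CPM at 48 h and was not called (log2 fold change 0.09, SE 0.20, edgeR adjusted p 0.857). Exons of Rhoq, Cdc20, Ube2c, Fdft1, Il12rb2, Junb and Stat3 overlap a gene on the other strand (Pigf, Elovl1, Tnnc2, Ctsb, Serbp1, Prdx2 and Stat5a), and since the use of strand in counting is not given in the sources used here, counts of such pairs cannot be told apart there.

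Between 24 h and 48 h 1886 genes were called, 8.9% of those tested, of which 990 were higher at 48 h (4.67%) and 896 lower (4.23%). At least 2-fold, 491 were higher (2.32%) and 328 lower (1.55%). The direction was the same in all 3 mice for 1877 of the 1886. Judged by the CPM alone, all 3 libraries at 48 h lay above all 3 at 24 h for 2542 genes (12%) and below them for 2366 (11.2%). The median log2 fold change of all tested genes was -0.02. From naive to 24 h, in the same fit and with the 24 h libraries shared, 10798 genes were called (51%), 5788 higher (27.3%) and 5010 lower (23.7%). The count for the second day fell to 239 without mouse 1 and to 839 without mouse 5, and was 1893 without mouse 3. The shares of all tested genes called higher and lower on each day are the background for the counts of called list members below.

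Among the genes higher at 48 h, those with the smallest p came from several functions. Galectin-1 (Lgals1, ENSMUSG00000068220, chr15:78926725-78930465, plus strand), a secreted lectin that binds galactosides on glycoproteins, had 30.99, 35.6 and 53.4 CPM in naive cells, 41.7, 45.6 and 47.1 CPM at 24 h and 231, 216 and 256 CPM at 48 h (log2 fold change 2.39, SE 0.14, edgeR adjusted p 1.95e-06). The libraries of one time stood close together, and the groups did not overlap. Map3k8, a kinase upstream of ERK, went from 12.2, 13.8 and 17.2 CPM to 46.6, 36.8 and 51.6 CPM (log2 fold change 1.65, SE 0.16, edgeR adjusted p 1.40e-04). The small GTPase Rhoq went from 13.1, 13.96 and 12.9 CPM to 34.8, 37.8 and 45.2 CPM (log2 fold change 1.55, SE 0.15, edgeR adjusted p 1.40e-04). The long intergenic RNA Gm17767 (ENSMUSG00000099413, chr1:51507086-51596718, minus strand) was near the limit of detection at 24 h, with 0.240, 0.341 and 0.116 CPM, and had 9.89, 8.92 and 6.18 CPM at 48 h (log2 fold change 5.21, SE 0.45, edgeR adjusted p 7.31e-05). Tspoap1, which encodes a binding partner of the mitochondrial outer membrane protein TSPO, differed between mice at 48 h, with 2.36, 4.75 and 4.64 CPM against 20.6, 64.3 and 104 CPM (log2 fold change 3.89, SE 0.38, edgeR adjusted p 1.40e-04). All its 48 h values still lay above those of 24 h. Cox17, the copper chaperone of cytochrome c oxidase, rose from 41.7, 41.98 and 40.3 CPM to 106, 79.5 and 114 CPM (log2 fold change 1.25, SE 0.13, edgeR adjusted p 1.62e-04), although none of 91 nuclear genes of the respiratory chain was called. The other genes named by the same rule were Tnfrsf4, Cd80, Nr4a3, Psrc1, Ccnb2 and Cenpa, and all 12 calls held.

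Among the genes lower at 48 h, those with the smallest p included 3 surface receptors, Itgae, Cxcr6 and Vipr1. Integrin alpha E (Itgae, CD103, ENSMUSG00000005947, chr11:73090583-73147446, plus strand), which binds E-cadherin on epithelium, had 256, 224 and 236 CPM in naive cells, 120.2, 65.1 and 130.2 CPM at 24 h and 20.5, 20.98 and 33.9 CPM at 48 h (log2 fold change -2.05, SE 0.20, edgeR adjusted p 1.40e-04). Cxcr6, the receptor of CXCL16, fell from 50.2, 33.03 and 55.98 CPM to 9.46, 12.7 and 14.9 CPM (log2 fold change -1.90, SE 0.18, edgeR adjusted p 1.40e-04). The neuropeptide receptor gene Vipr1 fell from 36.2, 24.7 and 45.8 CPM to 9.38, 11.99 and 13.5 CPM (log2 fold change -1.60, SE 0.21, edgeR adjusted p 5.89e-04). In all 3 genes mouse 3 was the lowest at 24 h, and every 48 h value lay below every 24 h value. Atxn1, a transcriptional repressor, and Bmi1, a Polycomb subunit, had been called higher at 24 h against naive cells (log2 fold changes 1.95 and 0.87) and were called lower at 48 h against 24 h. Atxn1 had 25.7, 28.9 and 20.3 CPM naive, 106, 100.7 and 81.2 CPM at 24 h and 45.4, 54.2 and 34.4 CPM at 48 h (log2 fold change -1.12, SE 0.10, edgeR adjusted p 1.40e-04). Bmi1 had 52.4, 50.03 and 54.9, then 103, 92.6 and 90.98, then 49.4, 41.3 and 51.4 CPM (log2 fold change -1.02, SE 0.11, edgeR adjusted p 2.52e-04). Galnt4 and Galnt10, which start mucin-type O-glycans, fell by 1.38 and 1.24 on the log2 scale. Exons of Galnt4 overlap Poc1b, and Snord35b, a called small nucleolar RNA gene, also shares exonic positions with another gene, so that counts of both are uncertain. Zfhx2, Hsd17b11, Kifc3 and Ifi209 completed the 12 genes named by the rule, and all 12 calls held.

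**Figure D1:**
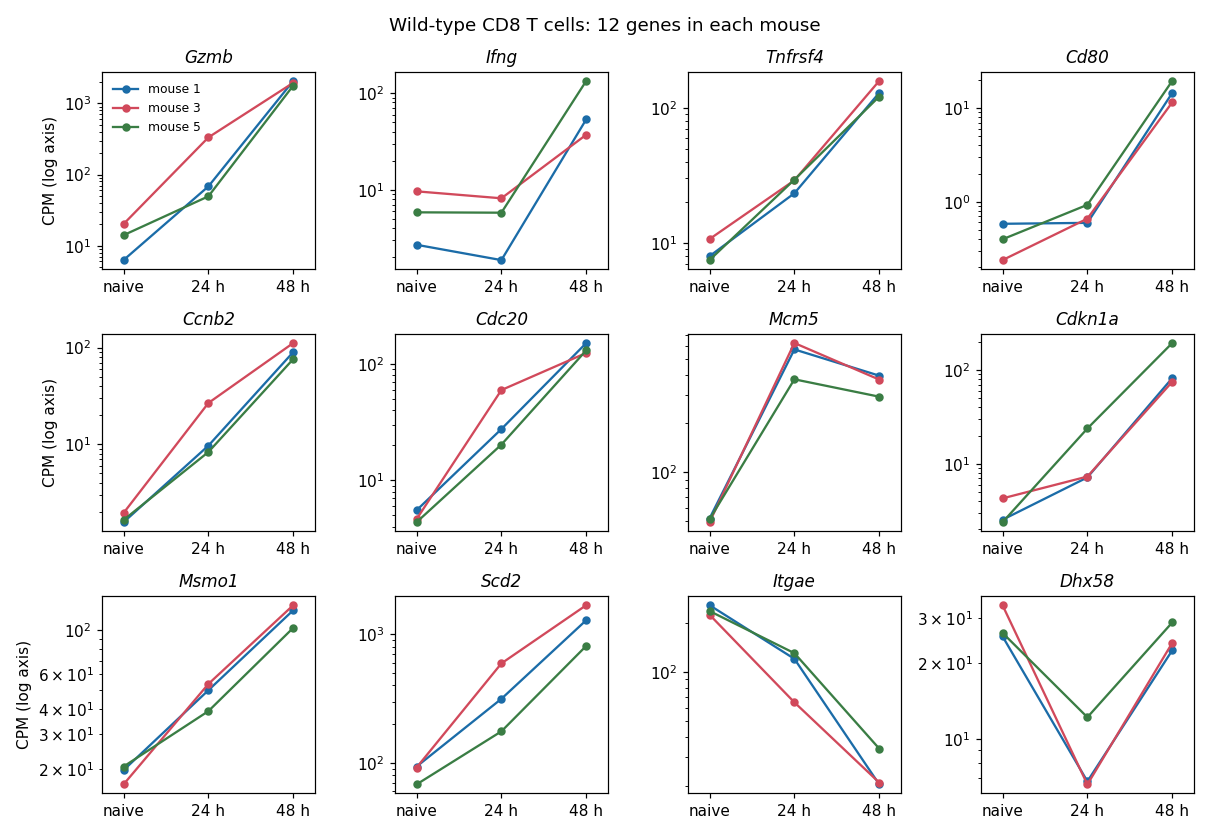
Level of 12 genes in CPM (scaled counts, log axis, each panel with its own range) in naive cells and after 24 h and 48 h of stimulation, with 1 line for each wild-type mouse. Gzmb, Cd80 and Cdkn1a climb on the second day in all 3 mice, Mcm5 peaks at 24 h, and Itgae falls throughout.

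Genes of mitosis rose on the second day, while nearly all genes of DNA replication, which had risen by 24 h, were not called again. Of 69 tested genes of mitosis and cytokinesis 51 were called higher at 48 h and none lower, where 4.67% of all tested genes were called higher and 4.23% lower. Their median log2 fold change was 1.09, beside -0.02 for all tested genes. For 52 of 69 all 48 h values lay above all 24 h values, where 12% of all tested genes did. Of 64 genes of DNA replication 1 was called higher and 1 lower, with a median of 0.01. In the first day 64 of the 69 mitotic genes were called higher and 1 lower (median 4.02), and 63 of the 64 replication genes were called higher and none lower (median 2.55), where 27.3% of all tested genes were called higher and 23.7% lower. These first-day values share the 24 h libraries with the second-day values, so the pairs are given side by side and not compared.

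Cyclin B2 (Ccnb2, ENSMUSG00000032218, chr9:70407692-70421547, minus strand), a partner of Cdk1 at mitotic entry, had 9.68, 26.7 and 8.32 CPM at 24 h and 90.1, 112 and 76.3 CPM at 48 h (log2 fold change 2.79, SE 0.28, edgeR adjusted p 1.40e-04). Cdc20, the activator of the anaphase-promoting complex, had 27.5, 59.5 and 20.3 CPM and 151, 124 and 130.4 CPM (log2 fold change 2.02, SE 0.27, edgeR adjusted p 6.82e-04). Ube2c, the ubiquitin-conjugating enzyme of that complex, had 15.1, 48.4 and 11.1 CPM and 123, 126 and 123 CPM (log2 fold change 2.58, SE 0.40, edgeR adjusted p 0.00145). In these 3 genes mouse 3 stood well above the other mice at 24 h, the 3 mice lay close together at 48 h, and the groups did not overlap. Hmmr, which acts at the spindle, rose from 26.4, 64.997 and 17.05 CPM to 169, 191 and 114 CPM (log2 fold change 2.29, SE 0.33, edgeR adjusted p 9.56e-04). The kinetochore motor gene Cenpe rose from 48.2, 100.1 and 36.7 CPM to 216, 229 and 186 CPM (log2 fold change 1.88, SE 0.28, edgeR adjusted p 0.00122). The centromeric histone gene Cenpa, which had not been called in the first day (log2 fold change 0.41, edgeR adjusted p 0.082), went from 37.99, 64.3 and 61.6 CPM to 174, 271 and 167 CPM (log2 fold change 1.89, SE 0.19, edgeR adjusted p 1.56e-04). Mki67, the proliferation antigen, had 398, 854 and 257 CPM and 1079, 1265 and 754 CPM (log2 fold change 1.14, SE 0.31, edgeR adjusted p 0.0348). Its 48 h value in mouse 5 lay below the 24 h value of mouse 3, so that the groups overlapped although each mouse went up. Not all members passed: Top2a, which untangles DNA before division, had 648, 1111 and 397 CPM and 1131, 1320.1 and 1001 CPM (log2 fold change 0.76, SE 0.27, edgeR adjusted p 0.102). Birc5 had 53.7, 99.6 and 33.8 CPM and 122, 111 and 115 CPM (log2 fold change 0.99, SE 0.32, edgeR adjusted p 0.0676). Calls of Ccnb2, Cdc20, Hmmr, Cenpe and Cenpa held, that of Ube2c was lost without mouse 1 (adjusted p 0.0516) and that of Mki67 without mouse 1 or 5 (up to 0.277). Called members of the list numbered 7 without mouse 1, 14 without mouse 5 and 57 without mouse 3, all higher.

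The replicative helicase illustrates the other group. Mcm5 had 51.9, 49.2 and 51.2 CPM in naive cells, 572, 626 and 374 CPM at 24 h and 394, 373 and 292 CPM at 48 h and was the only member called lower (log2 fold change -0.56, SE 0.15, edgeR adjusted p 0.0302), a call lost without mouse 1 or 3 (adjusted p up to 0.204). Mcm6 had 923, 929 and 659 CPM and 711, 669.6 and 648 CPM (log2 fold change -0.30, SE 0.14, edgeR adjusted p 0.207). Mcm3 had 718, 780.3 and 529 CPM and 570.0, 516 and 534 CPM (log2 fold change -0.32, SE 0.15, edgeR adjusted p 0.221). The sliding clamp Pcna had 316, 403 and 251 CPM and 324, 235 and 386 CPM (log2 fold change -0.02, SE 0.24, edgeR adjusted p 0.976). The groups of Mcm6, Mcm3 and Pcna overlapped, and for Pcna the value of mouse 3 was lower at 48 h while that of mouse 5 was higher. The only member called higher was Dbf4, the activating subunit of the Cdc7 kinase that fires origins, with 62.7, 91.4 and 55.04 CPM and 128, 112 and 131 CPM (log2 fold change 0.86, SE 0.17, edgeR adjusted p 0.00717), lost without mouse 1 or 5 (adjusted p up to 0.134).

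**Figure D2:**
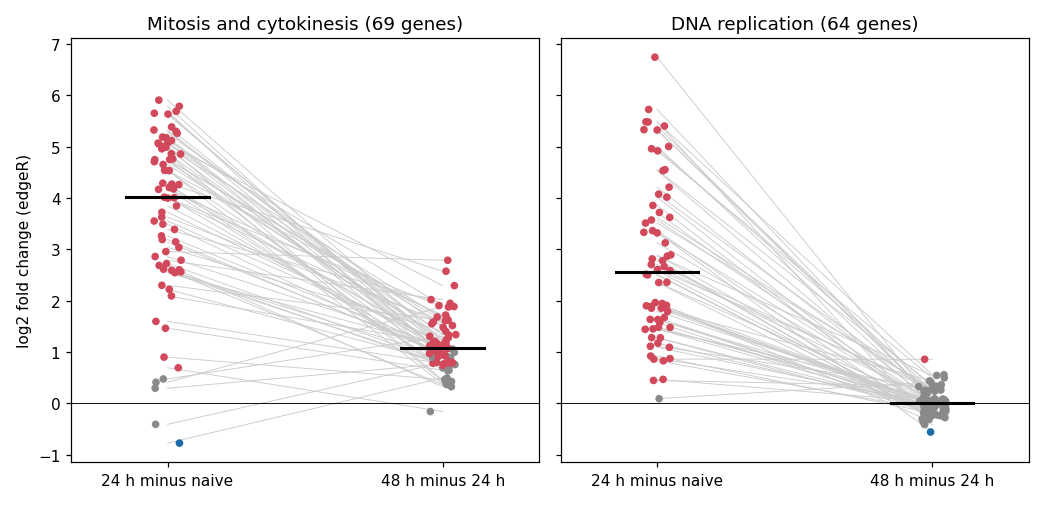
Log2 fold changes from edgeR of the tested genes of mitosis and cytokinesis (69, left) and of DNA replication (64, right) from naive to 24 h and from 24 h to 48 h, with a line joining the values of a gene, red and blue for genes called higher and lower, grey for genes not called, and a black bar for the median. On the second day the mitotic median is 1.09 and the replication median 0.01, and both sets of values share the 24 h libraries.

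Promoter sequence was set beside the genes because 51 of the 69 mitotic genes were called higher on the second day and 63 of the 64 replication genes had been called higher in the first. Cell cycle genes that peak in G2 and mitosis often carry a cell cycle homology region, TTTGAA, together with CCAAT boxes, while genes of the G1 to S transition often carry E2F sites. The 250 bases before the annotated start of transcription were read from RefSeq on GRCm38.p6, in which 58 of the 69 mitotic genes, 51 of the 64 replication genes and 17 of 22 cholesterol synthesis genes had an entry. They are shown 5′ to 3′ on the gene's strand for 3 mitotic genes that rose and 2 helicase subunits, with matches on either strand in capitals. Capitals mark the motif TTTGAA and the box CCAAT, each as read on the printed or on the other strand. They also mark E2F matches, searched on both strands as TTTGGCGC, TTTCCCGC, TTTGCCGC and TTTCGCGC, and matches that overlap run into one another. Ccnb2 (chr9:70421555-70421804, minus strand) holds TTTGAA 167 bases and CCAAT boxes 87, 54 and 21 bases before the start. Cdc20 (chr4:118437344-118437593, minus strand) holds TTTGAA 18 bases and CCAAT boxes 53 and 8 bases before it, and Ube2c (chr2:164769679-164769928, plus strand) TTTGAA on the other strand 29 bases before it beside several CCAAT boxes. Mcm5 (chr8:75109259-75109508, plus strand) and Mcm6 (chr1:128359706-128359955, minus strand) hold E2F matches and CCAAT boxes and no TTTGAA. Of the other mitotic genes whose values are given above, Mki67 and Top2a hold TTTGAA and Hmmr, Cenpe, Cenpa and Birc5 do not. Of the other replication genes, Mcm3, Pcna and Dbf4 hold no E2F match.
Ccnb2: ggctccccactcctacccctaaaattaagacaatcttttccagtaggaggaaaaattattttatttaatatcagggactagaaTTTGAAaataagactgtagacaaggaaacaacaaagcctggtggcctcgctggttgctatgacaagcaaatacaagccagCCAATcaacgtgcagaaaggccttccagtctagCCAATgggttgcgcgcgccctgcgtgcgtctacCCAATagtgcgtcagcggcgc
Cdc20: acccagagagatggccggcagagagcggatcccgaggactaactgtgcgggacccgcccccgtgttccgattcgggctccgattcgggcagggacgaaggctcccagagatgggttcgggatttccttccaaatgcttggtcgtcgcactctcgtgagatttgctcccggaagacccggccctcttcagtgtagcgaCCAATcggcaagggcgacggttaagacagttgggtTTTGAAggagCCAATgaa
Ube2c: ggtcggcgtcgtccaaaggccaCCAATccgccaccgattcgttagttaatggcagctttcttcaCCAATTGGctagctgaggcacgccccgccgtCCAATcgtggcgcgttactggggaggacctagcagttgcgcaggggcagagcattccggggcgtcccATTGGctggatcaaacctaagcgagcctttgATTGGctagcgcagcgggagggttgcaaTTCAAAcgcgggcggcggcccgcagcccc
Mcm5: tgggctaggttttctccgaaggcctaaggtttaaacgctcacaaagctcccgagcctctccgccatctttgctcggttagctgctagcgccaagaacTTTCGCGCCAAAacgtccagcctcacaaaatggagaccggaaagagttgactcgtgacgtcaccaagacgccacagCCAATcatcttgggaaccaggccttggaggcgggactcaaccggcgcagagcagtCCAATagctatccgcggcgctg
Mcm6: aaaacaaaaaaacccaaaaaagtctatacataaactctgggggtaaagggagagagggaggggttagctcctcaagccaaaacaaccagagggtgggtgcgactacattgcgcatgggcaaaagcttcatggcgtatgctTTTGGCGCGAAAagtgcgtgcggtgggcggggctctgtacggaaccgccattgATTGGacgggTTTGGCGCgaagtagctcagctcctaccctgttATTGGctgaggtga

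Over the lists, TTTGAA was present in 23 of 58 mitotic promoters (39.7%) and 7 of 51 replication promoters (13.7%), beside 13.5% of the 12064 tested genes with an entry and 18.3% of all 27025 genes in the table. TTTGAA and a CCAAT box stood in the same promoter in 20 mitotic genes (34.5%) and 4 replication genes (7.84%), beside 5.01% of tested genes. An E2F match was found in 6 mitotic (10.3%) and 13 replication promoters (25.5%), beside 3.59% of tested genes. These are counts of letters in a window, and no binding was measured here.

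Cyclins and their inhibitors were higher or not called, with 9 of 38 tested genes called higher, none lower and a median of 0.32 (4 called without mouse 1). Some of these genes are also on the mitosis or p53 lists. Ccnb1 went from 8.75, 20.05 and 5.37 CPM to 40.6, 31.9 and 37.7 CPM (log2 fold change 1.91, SE 0.39, edgeR adjusted p 0.00748). Ccna2 went from 140.0, 236 and 80.998 CPM to 293, 291 and 246 CPM (log2 fold change 0.94, SE 0.26, edgeR adjusted p 0.0384). The G1 cyclin gene Ccnd2 had 717, 801 and 654 CPM and 711, 526 and 681 CPM (log2 fold change -0.18, SE 0.20, edgeR adjusted p 0.649). The S-phase cyclin gene Ccne1 had 84.5, 114 and 56.2 CPM and 125, 83.3 and 105 CPM (log2 fold change 0.33, SE 0.21, edgeR adjusted p 0.399). Inhibitors also rose. Cdkn1a (p21, ENSMUSG00000023067, chr17:29090976-29100727, plus strand) went from 7.15, 7.30 and 23.8 CPM to 82.1, 74.97 and 194 CPM (log2 fold change 3.27, SE 0.46, edgeR adjusted p 7.78e-04), with mouse 5 highest at both times. Cdkn2c (p18) went from 13.6, 17.2 and 10.1 CPM to 23.4, 24.7 and 23.8 CPM (log2 fold change 0.83, SE 0.21, edgeR adjusted p 0.0251). Cdkn1b (p27), which restrains resting T cells, had 72.9, 49.9 and 99.4 CPM and 58.3, 107 and 64.8 CPM (log2 fold change 0.02, SE 0.32, edgeR adjusted p 0.986). The call of Cdkn1a held, and those of Ccnb1, Ccna2 and Cdkn2c were lost without mouse 1 or 5 (adjusted p up to 0.125, 0.274 and 0.187).

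Target genes of p53, the factor that answers DNA damage and of which p21 is the best known target, rose. Of 23 tested 15 were called higher and none lower, with a median of 1.05, where 4.67% of all tested genes were called higher. The DNA polymerase gene Polk had 20.2, 19.7 and 28.1 CPM and 43.5, 62.7 and 60.2 CPM (log2 fold change 1.30, SE 0.17, edgeR adjusted p 5.89e-04). The sestrin gene Sesn2 had 8.27, 11.3 and 11.6 CPM and 31.2, 28.2 and 24.99 CPM (log2 fold change 1.46, SE 0.20, edgeR adjusted p 7.32e-04). The groups of both genes were apart. Bbc3, which encodes the pro-apoptotic BH3-only protein PUMA, had been called lower at 24 h (log2 fold change -0.73) and went from 9.84, 7.63 and 13.8 CPM to 31.6, 28.2 and 35.03 CPM (log2 fold change 1.63, SE 0.21, edgeR adjusted p 5.95e-04). The kinase gene Plk2 had 18.1, 27.5 and 14.8 CPM naive, 2.19, 3.26 and 5.30 CPM at 24 h and 18.9, 29.9 and 17.8 CPM at 48 h (log2 fold change 2.62, SE 0.44, edgeR adjusted p 0.00256). Trp53 itself had 236, 254 and 219 CPM and 243, 174 and 255 CPM (log2 fold change -0.09, SE 0.15, edgeR adjusted p 0.796). Mdm2, its ubiquitin ligase and target, rose from 64.9, 67.9 and 76.2 CPM to 93.5, 99.6 and 126 CPM (log2 fold change 0.60, SE 0.11, edgeR adjusted p 0.0046). At 24 h mouse 5 was highest for 21 of the 23 genes, against 40.5% of all tested genes. Calls of Cdkn1a, Polk, Sesn2 and Bbc3 held, and those of Plk2 and Mdm2 were lost without mouse 1 (adjusted p 0.0658 and 0.0679), and without mouse 1 the list had 6 called members.

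Of 28 tested members of the BCL2 family and apoptosis list 8 were called higher and none lower (median 0.29), and without mouse 1 the list had 1 called member. Of all tested genes 4.67% were called higher. The list overlaps that of p53 targets, with Pmaip1 on both, so their counts are not separate. Known survival and death genes were both among the 8. On the survival side Bcl2 went from 84.1, 77.1 and 82.2 CPM to 173, 185 and 127 CPM (log2 fold change 0.98, SE 0.25, edgeR adjusted p 0.0253) after 225, 211 and 200.2 CPM in naive cells, and Bcl2l1, which encodes BCL-XL, from 59.3, 75.5 and 49.7 CPM to 161, 104 and 167 CPM (log2 fold change 1.22, SE 0.29, edgeR adjusted p 0.0167). On the death side Pmaip1 (NOXA) went from 11.5, 7.70 and 15.4 CPM to 20.6, 18.9 and 32.3 CPM (log2 fold change 1.05, SE 0.24, edgeR adjusted p 0.0135). The death receptor gene Fas went from 30.9, 29.5 and 39.03 CPM to 49.7, 65.7 and 65.1 CPM (log2 fold change 0.86, SE 0.18, edgeR adjusted p 0.00782). None of these 4 pairs of groups overlapped. All 4 calls were lost without mouse 1, that of Bcl2 also without mouse 3 or 5, that of Bcl2l1 without mouse 5 and that of Fas without mouse 3, with adjusted p up to 0.208, 0.196, 0.0975 and 0.0767.

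The granzyme B gene rose in all 3 mice, while the perforin gene was not called. Gzmb (granzyme B, the serine protease of the lytic granule, ENSMUSG00000015437, chr14:56258838-56262260, minus strand) had 6.27, 20.1 and 14.03 CPM in naive cells, 68.1, 333 and 49.4 CPM at 24 h and 2076, 1950.2 and 1784 CPM at 48 h (log2 fold change 4.20, SE 0.53, edgeR adjusted p 5.13e-04). Mouse 3 was ahead at 24 h, and the 3 mice were nearly level at 48 h. On the authors' length-scaled values Gzmb went from 119 ± 126 to 1527 ± 118 FPKM (SD, n = 3), while perforin (Prf1), which opens the target membrane for it, went from 16.2 ± 7.18 to 18.1 ± 7.14 FPKM. Prf1 had 17.8, 27.2 and 44.4 CPM and 20.7, 32.5 and 46.9 CPM and was not called (log2 fold change 0.18, SE 0.22, edgeR adjusted p 0.693). The granzyme list had 12 tested genes, of which 3 were called higher and 1 lower (median 0.81), and the other calls higher were serpins that inhibit granzymes and other proteases. Serpinb9 had 50.8, 93.4 and 71.5 CPM and 148, 147 and 177 CPM (log2 fold change 1.17, SE 0.26, edgeR adjusted p 0.0135). Serpinb6b had 51.5, 83.4 and 72.8 CPM and 223, 552 and 212 CPM (log2 fold change 2.19, SE 0.29, edgeR adjusted p 5.95e-04). Gzma was called lower, from 0.382, 1.13 and 1.87 CPM to 0.107, 0.202 and 1.21 CPM (log2 fold change -1.35, SE 0.35, edgeR adjusted p 0.0284), after 16.7, 66.6 and 74.6 CPM in naive cells. Beside it the NK markers Klra8 and Klrb1c were also called lower from under 1 CPM (log2 fold changes -4.46 and -2.89), and the part of NK cells in the Gzma value was not tested. Klrk1, which encodes the activating receptor NKG2D that CD8+ T cells also carry, rose from 17.98, 28.6 and 25.5 CPM to 109.7, 228 and 65.98 CPM (log2 fold change 2.39, SE 0.32, edgeR adjusted p 6.25e-04), and it was the only one of 13 NK receptor genes called higher. Calls of Gzmb, Klrk1 and Serpinb6b held, that of Serpinb9 was lost without mouse 1 or 5 (adjusted p up to 0.201) and that of Gzma without mouse 1 or 3 (up to 0.194).

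Cytokine genes were called in both directions. Of 40 tested 8 were called higher and 3 lower, with a median of 0.53, beside 4.67% and 4.23% of all tested genes. Without mouse 1 the counts were 1 and 0, and without mouse 5 they were 2 and 2. Ifng (ENSMUSG00000055170, chr10:118441046-118445892, plus strand), which encodes interferon-gamma, had 2.71, 9.66 and 5.86 CPM in naive cells, 1.88, 8.18 and 5.81 CPM at 24 h and 53.7, 37.2 and 134 CPM at 48 h (log2 fold change 4.0, SE 0.76, edgeR adjusted p 0.00481). All 3 mice went up, mouse 5 to the highest value. Lif, a cytokine of the IL-6 family, had 3.87, 10.9 and 3.65 CPM and 44.5, 20.001 and 58.97 CPM (log2 fold change 2.90, SE 0.55, edgeR adjusted p 0.0049). Its relative Osm had 7.18, 6.41 and 6.75 CPM and 24.01, 13.6 and 27.2 CPM (log2 fold change 1.62, SE 0.18, edgeR adjusted p 2.52e-04). Csf2 (GM-CSF) rose within low values, from 0.170, 0.270 and 0.324 CPM to 0.751, 1.31 and 4.02 CPM (log2 fold change 2.73, SE 0.70, edgeR adjusted p 0.0258). Tnfsf4, the ligand of OX40, went from 4.81, 4.02 and 6.84 CPM to 10.98, 10.9 and 26.7 CPM (log2 fold change 1.55, SE 0.37, edgeR adjusted p 0.0178). Tnf had 14.4, 19.5 and 21.8 CPM and 33.9, 21.8 and 65.02 CPM (log2 fold change 1.01, SE 0.32, edgeR adjusted p 0.0668). Il2 had 0.438, 0.917 and 1.24 CPM and 1.31, 1.47 and 7.36 CPM (log2 fold change 1.59, SE 0.65, edgeR adjusted p 0.152). Neither of these classical T cell cytokines was called. The chemokine gene Ccl1 appeared at 24 h and fell again (0, 0 and 0.0158, then 0.749, 1.55 and 1.64, then 0.0358, 0.0504 and 0.496 CPM, log2 fold change -3.37, SE 0.66, edgeR adjusted p 0.007). Csf1 fell from 4.08, 2.66 and 4.61 CPM to 0.727, 0.945 and 2.43 CPM (log2 fold change -1.63, SE 0.39, edgeR adjusted p 0.0177). At 48 h mouse 5 was highest for 34 of the 40 genes, against 38.9% of all tested genes. Osm held, the calls of Ifng, Lif, Csf2 and Tnfsf4 were lost without mouse 1 or 5 (adjusted p up to 0.1, 0.111, 0.201 and 0.14) and those of Ccl1 and Csf1 without mouse 1 (0.106 and 0.229).

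Costimulatory and checkpoint receptors were called in both directions, also within a family. Of 37 tested 8 were called higher and 8 lower, beside 4.67% and 4.23% of all tested genes. Without mouse 1 the counts were 5 and 0, and without mouse 5 they were 6 and 2. Of the TNF receptor superfamily on this list, Tnfrsf4, Tnfrsf18 and Tnfrsf9 were called higher and Cd27 and Tnfrsf25 lower, and Tnfrsf1a, Tnfrsf1b and Tnfrsf8 were not called. Tnfrsf4 (OX40, ENSMUSG00000029075, chr4:156013843-156016612, plus strand) went from 23.3, 29.03 and 29.4 CPM to 129.7, 159 and 122 CPM (log2 fold change 2.32, SE 0.20, edgeR adjusted p 7.31e-05). Tnfrsf18 (GITR) went from 66.1, 63.9 and 66.9 CPM to 176, 216 and 174 CPM (log2 fold change 1.52, SE 0.17, edgeR adjusted p 2.52e-04). Tnfrsf9 (4-1BB) went from 239, 276 and 337 CPM to 432, 641 and 548 CPM (log2 fold change 0.93, SE 0.15, edgeR adjusted p 0.0016). The groups were apart for all 3. Cd27, a member of the same superfamily that naive cells already carry, fell from 253, 229.9 and 277 CPM to 165, 163 and 157 CPM (log2 fold change -0.65, SE 0.11, edgeR adjusted p 0.00211). In the CD28 family the costimulator Cd28 fell from 599, 464 and 506 CPM to 272, 375 and 211 CPM (log2 fold change -0.91, SE 0.17, edgeR adjusted p 0.00496). Its inhibitory counterpart Ctla4 rose from 109, 102 and 103 CPM to 323, 319.6 and 193 CPM (log2 fold change 1.36, SE 0.18, edgeR adjusted p 6.05e-04). Per length, Cd28 went from 95.5 ± 12.5 to 52.1 ± 14.8 FPKM and Ctla4 from 50.3 ± 1.81 to 134 ± 35.5 FPKM (SD, n = 3), so that the mean of Ctla4 lay below that of Cd28 at 24 h and above it at 48 h. Cd80, a ligand of both, was under 1 CPM in all naive and 24 h libraries and had 14.5, 11.5 and 19.6 CPM at 48 h (log2 fold change 4.36, SE 0.45, edgeR adjusted p 1.62e-04), without overlap. The inhibitory receptor gene Pdcd1, which had been called higher at 24 h (log2 fold change 4.62), had 46.3, 56.1 and 50.9 CPM and 46.8, 75.8 and 45.9 CPM (log2 fold change 0.12, SE 0.34, edgeR adjusted p 0.884). Slamf6, Vsir, Cd5 and Cd6 were also called lower (log2 fold changes -0.78, -0.83, -0.65 and -0.58). Calls of Tnfrsf4, Tnfrsf18, Tnfrsf9, Ctla4 and Cd80 held, and those of Cd27 (without mouse 1, adjusted p 0.0565) and of Cd28, Slamf6, Vsir, Cd5 and Cd6 (without mouse 1 or 5, 0.106 to 0.236 at most) did not.

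Genes of cytokine receptors, JAKs and STATs were also called in both directions, 10 of 37 higher and 5 lower (3 and 3 without mouse 1). Il2ra, the alpha chain that gives the IL-2 receptor its high affinity, went from 118, 172 and 119.9 CPM to 520.2, 385 and 414 CPM (log2 fold change 1.71, SE 0.30, edgeR adjusted p 0.00319). The shared gamma chain Il2rg fell from 759.9, 673 and 782 CPM to 478, 450.2 and 472 CPM (log2 fold change -0.66, SE 0.10, edgeR adjusted p 0.00103). Il12rb2, the signalling chain for IL-12, had 26.1, 67.2 and 38.4 CPM and 232, 305 and 119 CPM (log2 fold change 2.37, SE 0.34, edgeR adjusted p 0.00101). Il10ra had 12.1, 32.7 and 16.1 CPM and 65.5, 169 and 67.8 CPM (log2 fold change 2.31, SE 0.31, edgeR adjusted p 6.25e-04), with mouse 3 highest for both at each time. Il6ra, which had already fallen in the first day (log2 fold change -2.67), fell from 44.2, 31.4 and 47.6 CPM to 15.1, 15.1 and 14.2 CPM (log2 fold change -1.46, SE 0.21, edgeR adjusted p 0.00103). Stat5a and Stat3 rose by 0.64 and 0.92 on the log2 scale. Feedback genes that STAT5 is known to induce were called higher too. Cish had 23.5, 32.5 and 20.5 CPM and 148, 87.2 and 149 CPM (log2 fold change 2.31, SE 0.32, edgeR adjusted p 6.90e-04). Socs2 had 1.23, 1.55 and 1.78 CPM and 22.9, 7.46 and 15.4 CPM (log2 fold change 3.23, SE 0.69, edgeR adjusted p 0.00933). The kinase gene Pim1 had 70.8, 80.6 and 106 CPM and 180.0, 126 and 202 CPM (log2 fold change 0.98, SE 0.24, edgeR adjusted p 0.0192). For all 3 the groups were apart. In the list of SOCS and related feedback genes 4 of 11 were called higher and none lower (1 without mouse 1). Calls of Il12rb2, Il10ra, Il2rg, Il6ra and Cish held, and those of Il2ra, Stat5a, Stat3, Socs2 and Pim1 were lost without mouse 1, that of Stat3 also without mouse 3 and that of Socs2 without mouse 5 (adjusted p up to 0.0806, 0.0637, 0.106, 0.151 and 0.238).

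Transcription factors of T cell fate showed 13 calls higher and 4 lower among 57 tested (3 and 0 without mouse 1). Bhlhe40, which acts in cytokine production, went from 30.003, 57.7 and 37.6 CPM to 127, 249 and 115 CPM (log2 fold change 1.93, SE 0.22, edgeR adjusted p 3.32e-04). Batf3, an AP-1 family partner of Jun proteins, went from 0.0707, 0.317 and 0.231 CPM to 5.22, 3.45 and 2.98 CPM (log2 fold change 4.23, SE 0.50, edgeR adjusted p 3.71e-04). The T-box factor Eomes went from 47.97, 84.2 and 43.2 CPM to 108, 122 and 126 CPM (log2 fold change 1.07, SE 0.23, edgeR adjusted p 0.0102). Batf3 was near the limit of detection at 24 h and its groups did not overlap. The related T-box gene Tbx21, which had been called higher in the first day (log2 fold change 2.38), had 30.98, 75.5 and 25.3 CPM and 62.3, 38.8 and 74.1 CPM (log2 fold change 0.57, SE 0.55, edgeR adjusted p 0.594), where mouse 3 had a lower value at 48 h and mice 1 and 5 a higher one. Irf4 had 391, 410.2 and 397 CPM and 361, 259 and 372 CPM (log2 fold change -0.26, SE 0.44, edgeR adjusted p 0.795). Prdm1, which drives terminal effector cells, had 0.170, 0.447 and 1.06 CPM and 0.739, 1.34 and 1.06 CPM (log2 fold change 1.07, SE 0.39, edgeR adjusted p 0.108). Bach2, a repressor of effector genes, fell from 248, 222 and 265 CPM to 128, 169.9 and 109 CPM (log2 fold change -0.88, SE 0.15, edgeR adjusted p 0.00253). Id3 fell from 47.98, 47.7 and 47.4 CPM to 32.2, 26.3 and 35.9 CPM (log2 fold change -0.61, SE 0.16, edgeR adjusted p 0.0326). Klf2, which keeps naive cells quiescent, fell from 54.8, 31.6 and 90.3 CPM to 13.9, 20.8 and 15.1 CPM (log2 fold change -1.77, SE 0.31, edgeR adjusted p 0.0031). The memory factor Tcf7 had 1037, 898 and 943 CPM and 669, 737 and 597 CPM, without overlap, and was not called (log2 fold change -0.52, SE 0.18, edgeR adjusted p 0.0917). Calls of Bhlhe40 and Batf3 held, and those of Eomes, Bach2, Id3 and Klf2 were lost without mouse 1, that of Eomes also without mouse 5 and that of Id3 without mouse 3 or 5 (adjusted p up to 0.139, 0.0687, 0.214 and 0.0771).

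Immediate early genes, which follow receptor signals within minutes to hours, were mixed, with 8 of 38 called higher and 3 lower (3 and 0 without mouse 1). The orphan nuclear receptor gene Nr4a3 went from 63.3, 143 and 114 CPM to 463, 586 and 459.9 CPM (log2 fold change 2.29, SE 0.23, edgeR adjusted p 1.40e-04). Junb, which had 712, 959 and 694 CPM in naive cells, had 50.5, 68.1 and 70.02 CPM at 24 h and 115, 144 and 147 CPM at 48 h (log2 fold change 1.11, SE 0.20, edgeR adjusted p 0.00396). Atf3 had 1.65, 2.998 and 3.78 CPM and 11.4, 10.3 and 13.7 CPM (log2 fold change 2.16, SE 0.44, edgeR adjusted p 0.00711). Junb at 48 h was still far below its naive values. The MAP kinase phosphatase gene Dusp2 fell from 99.5, 113 and 114 CPM to 50.6, 67.5 and 74.8 CPM (log2 fold change -0.78, SE 0.18, edgeR adjusted p 0.017). Spred1, an inhibitor of the Ras pathway, fell from 18.6, 22.4 and 16.5 CPM to 12.2, 16.02 and 7.20 CPM (log2 fold change -0.75, SE 0.18, edgeR adjusted p 0.0183). Nr4a3 held, and the calls of Junb, Atf3, Dusp2 and Spred1 were lost without mouse 1, the last 2 also without mouse 5 (adjusted p up to 0.0809, 0.125, 0.215 and 0.163).

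Of 41 tested genes of the naive and quiescent state 5 were called lower and 2 higher on the second day, with a median of -0.34, after 27 lower and 2 higher in the first. Of all tested genes 4.23% were called lower and 4.67% higher on the second day, and 23.7% and 27.3% in the first. Without mouse 1, 1 of the 41 was called lower and none higher on the second day. Dgka, a kinase that removes the second messenger diacylglycerol, had 1421, 1326 and 1278 CPM naive, 523, 374 and 633 CPM at 24 h and 237, 285 and 255 CPM at 48 h (log2 fold change -0.96, SE 0.21, edgeR adjusted p 0.0126). Il7r, the receptor chain for the survival cytokine IL-7, had 53.7, 30.8 and 97.4 CPM and 44.6, 65.9 and 56.003 CPM, with a higher value at 48 h in mouse 3 and a lower one in mice 1 and 5 (log2 fold change -0.02, SE 0.43, edgeR adjusted p 0.993). Among 45 homing and adhesion receptors 5 were called higher and 6 lower (0 and 3 without mouse 1). Cd44 went from 37.8, 56.9 and 36.5 CPM to 85.2, 137 and 69.7 CPM (log2 fold change 1.14, SE 0.26, edgeR adjusted p 0.0153). Ccr4 went from 4.44, 5.07 and 5.39 CPM to 19.3, 10.2 and 29.2 CPM (log2 fold change 1.89, SE 0.50, edgeR adjusted p 0.0282), while the gut-homing receptor genes Ccr9 and Itgb7 fell by 1.25 and 0.86 on the log2 scale beside Itgae. Cxcr3, the receptor of interferon-induced chemokines, fell from 10.5, 17.5 and 4.86 CPM to 3.54, 4.31 and 3.32 CPM (log2 fold change -1.45, SE 0.28, edgeR adjusted p 0.00575). Ccr9 held, and the calls of Dgka, Cd44, Ccr4, Itgb7 and Cxcr3 were lost without mouse 1, those of Dgka, Ccr4 and Itgb7 also without mouse 5 and that of Cd44 without mouse 3 (adjusted p up to 0.17, 0.13, 0.218, 0.321 and 0.0922).

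**Figure D3:**
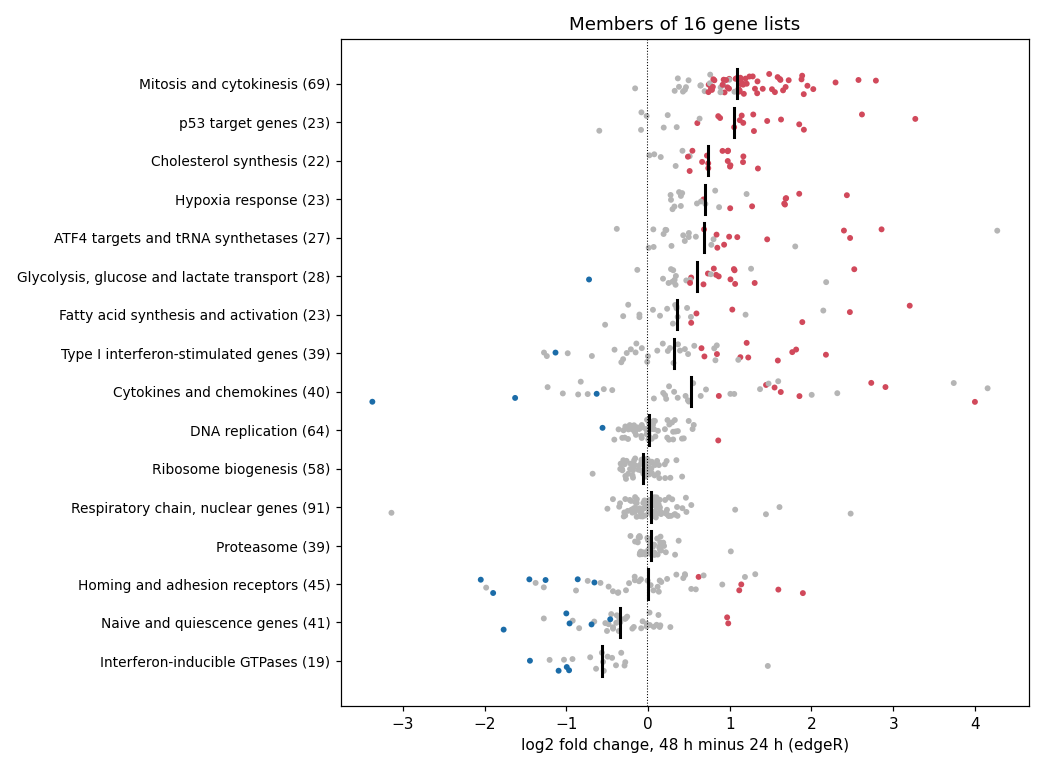
Log2 fold change from 24 h to 48 h (edgeR) of each tested member of 16 gene lists, with the number of members in brackets, red and blue for members called higher and lower, grey for members not called, and a black bar for the list's median. Medians run from 1.09 for mitosis to -0.56 for interferon-inducible GTPases, and the ribosome biogenesis, respiratory chain and proteasome lists hold no call.

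Of 39 genes typical of type I interferon 10 were called higher and 1 lower on the second day (median 0.31), and in the first day 1 had been called higher and 31 lower. Of all tested genes 4.67% were called higher and 4.23% lower on the second day, and 27.3% and 23.7% in the first. Of 19 GTPases that interferon-gamma induces 4 were called lower and none higher (median -0.56). Without mouse 1 the type I list had 4 calls higher and 1 lower and the GTPases had none. The RNA sensor Dhx58 had 25.5, 33.9 and 26.3 CPM naive, 6.78, 6.60 and 12.2 CPM at 24 h and 22.4, 24.01 and 28.9 CPM at 48 h (log2 fold change 1.59, SE 0.21, edgeR adjusted p 5.95e-04), and Usp18, which removes ISG15 from proteins, 52.1, 61.6 and 46.2, then 20.2, 17.1 and 21.1, then 42.9, 33.96 and 51.3 CPM (log2 fold change 1.13, SE 0.16, edgeR adjusted p 0.00101). For both genes the 48 h values lay above all 24 h values. Isg15 had 2.247, 2.61 and 3.85 CPM and 7.68, 7.65 and 16.005 CPM (log2 fold change 1.81, SE 0.37, edgeR adjusted p 0.00799), below its naive 16.5, 22.2 and 18.9 CPM in each mouse. Ifit1 had 13.1, 7.38 and 16.4 CPM and 8.46, 7.72 and 17.8 CPM and was not called (log2 fold change -0.15, SE 0.36, edgeR adjusted p 0.859). Among the guanylate-binding and immunity-related GTPases all 48 h values lay below all 24 h values for 11 of 19, where 11.2% of all tested genes did. Irgm1 fell from 382, 344 and 397 CPM to 176, 110.3 and 259 CPM (log2 fold change -1.09, SE 0.25, edgeR adjusted p 0.0154). Gbp4 fell from 465, 398 and 541 CPM to 158, 121 and 246 CPM (log2 fold change -1.44, SE 0.23, edgeR adjusted p 0.00195). Gbp4, Gbp8 and Gbp9, all called lower, share exonic positions, and their counts are uncertain. Mouse 5 was highest for 30 of the 39 type I genes at 24 h and 32 at 48 h, and for 15 and 17 of the 19 GTPases. Calls of Dhx58 and Usp18 held, and those of Isg15, Irgm1 and Gbp4 were lost without mouse 1, that of Isg15 also without mouse 5 and that of Irgm1 without mouse 3 (adjusted p up to 0.0995, 0.158 and 0.0561).

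Enzymes of cholesterol synthesis rose from the first steps of the pathway to the last. Of 22 tested 16 were called higher and none lower, all 22 had a positive log2 fold change, and the median was 0.73. In the mevalonate arm, the synthase gene Hmgcs1 went from 159, 185 and 97.2 CPM to 248, 299 and 174 CPM (log2 fold change 0.72, SE 0.17, edgeR adjusted p 0.0187). Mvd, the decarboxylase that yields isopentenyl diphosphate, went from 26.3, 26.3 and 20.1 CPM to 61.4, 56.8 and 44.7 CPM (log2 fold change 1.16, SE 0.13, edgeR adjusted p 2.72e-04). Further down, the squalene synthase gene Fdft1 went from 52.4, 56.1 and 45.02 CPM to 101.4, 104 and 96.2 CPM (log2 fold change 0.98, SE 0.13, edgeR adjusted p 6.25e-04). The sterol oxidase gene Msmo1 went from 49.8, 53.6 and 39.1 CPM to 126, 133 and 103 CPM (log2 fold change 1.34, SE 0.14, edgeR adjusted p 1.76e-04). Mvk, Ggps1 and Ebp had log2 fold changes of 0.02, 0.16 and 0.08 and were not called. At 24 h mouse 3 was highest for 20 of the 22 genes, and the median change was 0.84, 0.64 and 0.85 in mice 1, 3 and 5. Calls of Mvd, Fdft1 and Msmo1 held and that of Hmgcs1 was lost without mouse 1 (adjusted p 0.132), which left 6 called members. Around the pathway, the sterol carrier gene Stard4 rose (log2 fold change 0.94, SE 0.12, edgeR adjusted p 6.05e-04) and the cholesterol exporter gene Abca1 fell (log2 fold change -1.11, SE 0.18, edgeR adjusted p 0.00201), and both held.

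Promoters of Hmgcs1 and Mvd, enzymes of the mevalonate arm, are shown for the sterol regulatory element, which SREBP binds, searched on both strands as TCACNCCAC, and for CCAAT boxes, where NF-Y binds beside SREBP. Both are read from RefSeq on GRCm38.p6, 250 bases before the start, 5′ to 3′, with matches in capitals. Hmgcs1 (chr13:119690101-119690350, plus strand) holds the element 137 bases and CCAAT boxes 237, 176 and 45 bases before the start, and Mvd (chr8:122443423-122443672, minus strand) holds CCAAT boxes 60 and 27 bases before it and no match to these letters of the element.
Hmgcs1: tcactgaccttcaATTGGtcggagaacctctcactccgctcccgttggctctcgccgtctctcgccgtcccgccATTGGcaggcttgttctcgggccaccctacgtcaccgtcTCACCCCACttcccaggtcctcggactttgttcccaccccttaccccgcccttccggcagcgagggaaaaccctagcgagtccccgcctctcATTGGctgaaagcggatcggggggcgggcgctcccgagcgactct
Mvd: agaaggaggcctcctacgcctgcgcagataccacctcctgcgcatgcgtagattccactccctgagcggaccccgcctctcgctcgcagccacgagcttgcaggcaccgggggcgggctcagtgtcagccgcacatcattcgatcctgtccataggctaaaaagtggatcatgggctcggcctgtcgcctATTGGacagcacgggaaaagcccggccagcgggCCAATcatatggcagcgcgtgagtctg

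A CCAAT box was present in 16 of 17 cholesterol synthesis promoters (94.1%) and at least 2 in 11 of 17 (64.7%), beside 39.6% and 14.1% of tested genes. The sterol regulatory element as searched was present in 1 (5.88%), beside 1.29%.

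**Figure D4:**
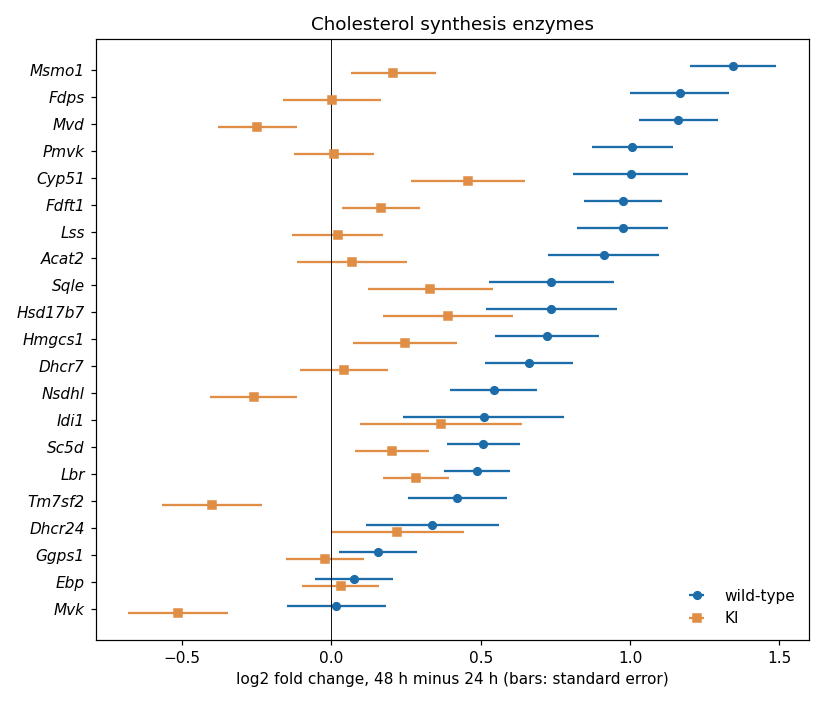
Log2 fold change from 24 h to 48 h (edgeR) of 21 of the 22 tested enzymes of cholesterol synthesis in wild-type cells (circles) and in KI cells (squares), with bars of 1 standard error. All 21 wild-type values drawn are above 0.

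Among fatty acid genes those called act in desaturation, elongation and activation. Of 23 tested 6 were called higher and none lower, with a median of 0.35, and the called genes were Scd1, Scd2, Fads2, Elovl6, Acsl3 and Acsl4. The stearoyl-CoA desaturases make monounsaturated fatty acids. Scd2 went from 315, 593 and 176 CPM to 1287, 1683 and 813 CPM (log2 fold change 1.89, SE 0.24, edgeR adjusted p 5.09e-04). Scd1 went from 8.55, 23.9 and 15.4 CPM to 76.7, 165 and 31.6 CPM (log2 fold change 2.47, SE 0.36, edgeR adjusted p 0.00113). Per length, Scd2 went from 74.4 ± 44.4 to 258 ± 88.1 FPKM and Scd1 from 3.69 ± 1.80 to 20.99 ± 15.5 FPKM (SD, n = 3). Fads2, a desaturase of polyunsaturated fatty acids, had 2.37, 8.97 and 1.27 CPM and 40.5, 48.4 and 12.4 CPM (log2 fold change 3.20, SE 0.52, edgeR adjusted p 0.00201). Acsl3, which activates fatty acids, had 23.5, 30.6 and 22.7 CPM and 50.3, 55.9 and 49.8 CPM (log2 fold change 1.03, SE 0.15, edgeR adjusted p 8.61e-04). Fasn, the synthase itself, had 437, 624 and 397 CPM and 536, 364 and 331 CPM (log2 fold change -0.24, SE 0.28, edgeR adjusted p 0.664). Acly, which supplies its acetyl-CoA, had 369.6, 416 and 317 CPM and 462, 408 and 350.0 CPM (log2 fold change 0.15, SE 0.14, edgeR adjusted p 0.602). In Scd1, Scd2 and Fads2 mouse 3 was highest at both times. Calls of Scd2, Scd1 and Acsl3 held, and those of Fads2 (without mouse 1, adjusted p 0.0685), Elovl6 (without mouse 1 or 5, up to 0.319) and Acsl4 (without any 1 mouse, up to 0.265) were lost. Without mouse 1 the list had 3 called members.

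Part of the genes of glycolysis and of the hypoxia response rose, and the lists share Slc2a1 and Pdk1. Of all tested genes 4.67% were called higher and 4.23% lower. Of 28 tested genes of glycolysis and of glucose and lactate transport 13 were called higher and 1 lower (median 0.60), and of 23 hypoxia response genes 9 were called higher and none lower (median 0.70). Without mouse 1 the calls higher numbered 4 and 2 and none was lower, and without mouse 5 they were 7 and 7. The lactate exporter gene Slc16a3 went from 8.13, 15.9 and 7.83 CPM to 48.1, 121 and 28.2 CPM (log2 fold change 2.52, SE 0.35, edgeR adjusted p 7.13e-04). The hexokinase gene Hk2 went from 55.8, 80.8 and 59.4 CPM to 140.1, 106 and 156 CPM (log2 fold change 1.06, SE 0.26, edgeR adjusted p 0.0225). The glucose transporter gene Slc2a3 went from 43.7, 53.1 and 57.7 CPM to 74.4, 299 and 79.5 CPM (log2 fold change 1.30, SE 0.35, edgeR adjusted p 0.0334). Mouse 3 stood far above the others for Slc16a3 and Slc2a3 at 48 h, and the groups of all 3 genes were apart. Ldha, the main lactate dehydrogenase of activated T cells, had 1192, 1424 and 978 CPM and 1715, 1641 and 1595 CPM and was not called (log2 fold change 0.47, SE 0.15, edgeR adjusted p 0.0691). Ldhb fell from 19.6, 19.4 and 14.8 CPM to 9.27, 14.5 and 9.20 CPM (log2 fold change -0.72, SE 0.18, edgeR adjusted p 0.0212). Per length, Ldha went from 449.9 ± 88.1 to 619 ± 24.5 FPKM and Ldhb from 12.8 ± 2.06 to 7.83 ± 2.13 FPKM (SD, n = 3). Eno1, Tpi1, Pgk1, Ldha and Gapdh have near-identical pseudogenes, so that their counts are uncertain, and Gapdh had 18.3, 21.9 and 14.3 CPM and 23.9, 24.99 and 17.2 CPM. Slc16a3 held, and the calls of Hk2 and Ldhb were lost without mouse 1 or 5 (adjusted p up to 0.237 and 0.282) and that of Slc2a3 without mouse 1 or 3 (0.196).

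The hypoxia genes differed between mice. Their median change was 0.66 in mouse 1, 1.67 in mouse 3 and 0.54 in mouse 5, and at 48 h mouse 3 was highest for 22 of the 23, against 40.5% of all tested genes. Without mouse 3 the median was 0.32 and 6 genes were called. Vegfa, the vascular growth factor, rose in each mouse, from 3.97, 8.76 and 5.81 CPM to 31.2, 44.8 and 23.7 CPM (log2 fold change 2.43, SE 0.30, edgeR adjusted p 4.98e-04). The adenylate kinase gene Ak4 went from 6.29, 11.7 and 5.28 CPM to 21.99, 37.3 and 15.9 CPM (log2 fold change 1.69, SE 0.27, edgeR adjusted p 0.00188). Bnip3, a mitophagy receptor, had 4.54, 4.83 and 3.69 CPM and 8.57, 34.2 and 7.55 CPM (log2 fold change 1.68, SE 0.39, edgeR adjusted p 0.015). The prolyl hydroxylase gene Egln3 had 5.43, 6.48 and 4.35 CPM and 12.1, 44.2 and 7.13 CPM (log2 fold change 1.68, SE 0.49, edgeR adjusted p 0.0461). Aldoc, on the glycolysis list, had 3.91, 4.94 and 2.87 CPM and 7.32, 91.1 and 4.65 CPM and was not called (log2 fold change 2.18, SE 0.75, edgeR adjusted p 0.089). In Bnip3, Egln3 and Aldoc the 48 h value of mouse 3 lay several-fold above the other 2. Hif1a had 183, 224 and 212 CPM and 278, 344 and 227 CPM (log2 fold change 0.45, SE 0.19, edgeR adjusted p 0.175). Vegfa held, and the calls of Ak4 (without mouse 1, adjusted p 0.053), Bnip3 (without mouse 1 or 3, up to 0.0707) and Egln3 (without any 1 mouse, up to 0.224) did not.

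**Figure D5:**
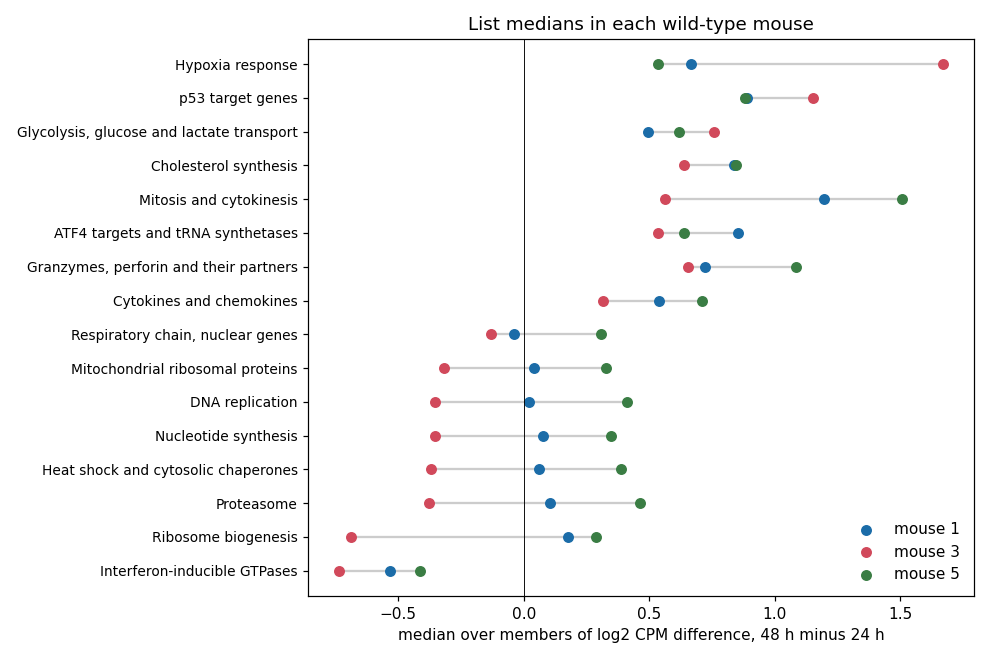
Median over the tested members of 16 gene lists of the log2 CPM difference between 48 h and 24 h, with 1 point for each wild-type mouse and a grey line over their range. Mouse 3 stands highest for hypoxia (1.67) and lowest for mitosis (0.56) and ribosome biogenesis (-0.69).

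Genes of the amino acid response rose in part. Of 27 tested ATF4 targets and tRNA synthetase genes 10 were called higher and none lower, with a median of 0.69. Without mouse 1 the list had 1 called member and without mouse 5 it had 5. Atf4 itself went from 174, 242 and 194 CPM to 421, 349.6 and 386 CPM (log2 fold change 0.93, SE 0.19, edgeR adjusted p 0.00672). Trib3, a pseudokinase that restrains it, went from 3.43, 6.80 and 4.34 CPM to 31.3, 33.99 and 16.03 CPM (log2 fold change 2.47, SE 0.43, edgeR adjusted p 0.00304). Asns, the asparagine synthetase, went from 10.95, 39.7 and 6.02 CPM to 103, 165 and 23.8 CPM (log2 fold change 2.40, SE 0.40, edgeR adjusted p 0.00244). Asns was lowest in mouse 5 at both times, and its groups overlapped although each mouse went up. Slc7a5, the transporter of large neutral amino acids, had 188, 311 and 163 CPM and 495, 333 and 288 CPM (log2 fold change 0.77, SE 0.20, edgeR adjusted p 0.0268). Slc16a10, a transporter of aromatic amino acids, fell from 46.7, 40.3 and 32.8 CPM to 19.7, 18.3 and 12.1 CPM (log2 fold change -1.26, SE 0.18, edgeR adjusted p 9.77e-04). Mthfd2, of mitochondrial one-carbon metabolism, had 138, 205 and 135 CPM and 343, 274 and 294 CPM (log2 fold change 0.94, SE 0.25, edgeR adjusted p 0.0282). Shmt2 of the same pathway had 435, 571 and 374 CPM and 608, 406 and 469 CPM (log2 fold change 0.10, SE 0.16, edgeR adjusted p 0.781). Slc16a10 held, and the calls of Atf4, Trib3, Asns, Slc7a5 and Mthfd2 were lost without mouse 1, those of Atf4, Slc7a5 and Mthfd2 also without mouse 5 (adjusted p up to 0.151, 0.0809, 0.0682, 0.363 and 0.287).

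Several lists of growth machinery, most of whose genes had been called higher by 24 h, held 0 to 3 calls on the second day. Of all tested genes 27.3% were called higher and 23.7% lower in the first day, and 4.67% and 4.23% on the second. For ribosome biogenesis 53 of 58 genes had been called higher at 24 h and none was called on the second day (median -0.06). For nuclear genes of the respiratory chain 68 of 91 had been called higher and 1 lower, and none was called on the second day (median 0.03), and for the proteasome the counts were 35 of 39 and none (median 0.04). Mitochondrial ribosomal proteins had 70 of 77 called higher in the first day and then 1 higher and 2 lower, and nucleotide synthesis 24 of 30 higher and 1 lower and then none higher and 1 lower. Other lists had few calls higher by 24 h and few or none later. Of 12 tested genes of the mitochondrial genome 2 had been called higher and none was called on the second day (median -0.20). Of 82 cytosolic ribosomal protein genes 6 had been called higher and 18 lower, the latter near the share of all tested genes. On the second day 1 was called lower (median 0.08). The mice did not move alike: for ribosome biogenesis the median was 0.18 in mouse 1, -0.69 in mouse 3 and 0.29 in mouse 5, and mouse 3 was highest for 52 of the 58 genes at 24 h and lowest for 56 at 48 h. Nucleolin (Ncl), which acts in the nucleolus, had 3963, 4295 and 3345 CPM and 3783, 2839 and 4441 CPM (log2 fold change -0.09, SE 0.16, edgeR adjusted p 0.812). The growth regulator gene Myc had 212, 302 and 277 CPM and 376, 304 and 361 CPM (log2 fold change 0.40, SE 0.17, edgeR adjusted p 0.171).

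Mice 3 and 5 both stood apart in several lists at once. At 24 h the library of mouse 3 was the highest of the 3 for 67 of 69 mitotic, 60 of 64 replication and 20 of 22 cholesterol genes, against 35.5% of all tested genes. That of mouse 5 was the lowest at 24 h for 65, 62 and 20 of these genes, against 7632 of all 21183 tested genes. At 48 h mouse 3 was the lowest for 39 of 64 replication and 32 of 39 proteasome genes, against 7743 of all 21183. The 3 mice were stimulated in 3 experiments, so mouse and experiment cannot be told apart, nor can sex and mouse 5, and the part of either in these values was not tested.

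Of 29 tested genes of mitochondria-ER contacts and calcium transfer, the subject of the series' title, 3 were called lower and none higher on the second day (median 0.09), where 4.23% of all tested genes were called lower, and no member was called without mouse 1. Osbpl5, a lipid transfer protein of contact sites, went from 18.3, 15.9 and 21.4 CPM to 10.1, 10.4 and 9.11 CPM (log2 fold change -0.91, SE 0.15, edgeR adjusted p 0.00269). Pacs2, a sorting protein of these contacts, went from 89.7, 78.8 and 83.9 CPM to 66.5, 62.96 and 53.3 CPM (log2 fold change -0.47, SE 0.13, edgeR adjusted p 0.037). For Osbpl5 and for Pacs2, the 24 h and 48 h libraries did not overlap. Both calls were lost without mouse 1, and that of Pacs2 also without mouse 3 or 5 (adjusted p up to 0.0586 and 0.234). Calreticulin (Calr), an ER calcium-binding chaperone, fell from 978, 876 and 832 CPM to 618, 437 and 658 CPM (log2 fold change -0.67, SE 0.14, edgeR adjusted p 0.00781), lost without mouse 1 or 3 (up to 0.111).

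In KI cells, which share no library with the wild type, 807 genes were called over the same interval (3.81%), 535 higher (2.53%) and 272 lower (1.28%). Both genotypes called 504 genes, 26.7% of the wild-type calls and 62.5% of the KI calls, and 500 of these had the same direction. The mitotic genes had 62 of 69 called higher in KI cells and none lower (median 1.46) and the p53 targets 8 of 23 (median 0.64). The cholesterol list had 1 of 22 called in KI cells, with a median of 0.12 beside 0.73 in wild-type cells. Whether the lists differ between genotypes was not tested. A direct test of KI change minus wild-type change called 2 of 21183 genes (0.00944%), and 1507 had an unadjusted p under 0.05. The first was Mvd (ENSMUSG00000006517, chr8:122433601-122443422, minus strand), which had 20.1, 20.3 and 23.1 CPM at 24 h and 16.9, 19.7 and 17.1 CPM at 48 h in KI cells (log2 fold change -0.25, SE 0.13, edgeR adjusted p 0.367), a difference from the wild-type change of -1.41 on the log2 scale (edgeR adjusted p 0.0244). No gene was called in this test without wild-type mouse 1 or 5 or without any 1 KI mouse. Values of KI cells at 48 h lay below all 3 wild-type values at that time. The second was the processed pseudogene Gm13237 (ENSMUSG00000095865, chr4:146564453-146565087, minus strand), which had 0.0141, 0 and 0 CPM at 24 h and 48.001, 0 and 0 CPM at 48 h in wild-type cells and 0, 29.8 and 0 CPM and 0, 0 and 0 CPM in KI cells, so that 1 library of each genotype held nearly all its counts. Differences that did not pass adjustment in the edgeR fit included Sh2d1a, which encodes the adaptor SAP, with a wild-type change of 1.96 (adjusted p 1.85e-04) and a KI change of 0.26 (adjusted p 0.578, difference -1.69, adjusted p 0.0999). For Cxcr6 the changes were -1.90 and -0.27 (difference 1.62, adjusted p 0.0885) and for Atxn1 -1.12 and -0.20 (difference 0.92, adjusted p 0.0885). The ATP receptor gene P2rx7 had a change of -0.61 in wild-type cells, not called (adjusted p 0.183), and of 1.57 in KI cells (adjusted p 0.00434, difference 2.18, adjusted p 0.0982).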

How the data were processed

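RNA of magnetically enriched CD8+ T cells was sequenced in 22 libraries (TruSeq stranded mRNA, paired ends of 75 nt, per the labels' protocols). Per the submitters' processing notes, TopHat2 2.1.0, Bowtie2 2.2.5, SAMtools 0.1.19, featureCounts, DESeq2 1.6.3 and GRCm38/mm10 were named, and the annotation and strand setting are not given in the sources used here. The authors deposited raw counts per gene, which carry every test here, and FPKM values, which the authors scaled by gene length and which are used only to set levels of different genes side by side. Their normalized and variance-stabilised tables were not used.

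Genes passing edgeR's filterByExpr (minimum count 10, total 15) were fitted over all 22 libraries with TMM scaling and edgeR 4.0.16 (R 4.3.3), with 1 block per mouse and time within genotype, and quasi-likelihood tests with Benjamini-Hochberg adjustment at 0.05. CPM use the TMM-adjusted totals. The 24 h and 48 h libraries of a number come from 1 mouse, which pairs them. Correlations of their deviations were 0.318, 0.051 and 0.389, and those between different mice -0.512 to 0.379. No 2 wild-type libraries of the same time, 24 h or 48 h, agreed within sampling noise. The text names the 12 called genes of smallest p in each direction that moved at least 2-fold and in the same direction in 3 mice with a mean of at least 5 CPM, called list members of smallest p (up to 6 a direction) and other members for their role, genes with the smallest p in the KI comparison, and Tcaim. Some genes that the rule or a list names are not reported here. Members and lists were chosen with earlier results of these data known. The p-values rest on the spread left in the fit of all 22 libraries (9 residual degrees of freedom), and not on these 3 mice alone. On simulated counts of 20686 genes the wild-type comparison recovered 76 of 100 genes changed 2-fold and all 100 changed 4-fold. The simulation gave every gene the same spread and let no mouse effect change with time, so it does not measure recovery in the real data. Gene positions are those of GENCODE on GRCm38. Alternatives tried were no mouse block, an experiment block, fewer libraries, other scalings and filters, DESeq2 1.42.0 and leaving out each mouse.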

Additional observations from a re-analysis of the deposited data

Results flagged for a closer look

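The change from 24 h to 48 h differed between KI and wild-type cells for 2 genes by a direct test in the edgeR fit over all genes. For Mvd, a step of cholesterol synthesis, the KI change minus the wild-type change was -1.41 on the log2 scale (edgeR adjusted p 0.0244, and with no gene called without wild-type mouse 1 or 5 or without any 1 KI mouse), with 48 h values of 61.4, 56.8 and 44.7 CPM in the wild-type mice and 16.9, 19.7 and 17.1 CPM in the KI mice. For the pseudogene Gm13237 the fitted difference was -23.7036, a value set by 48.0 CPM in 1 wild-type 48 h library and 29.8 CPM in 1 KI 24 h library, with at most 0.0141 CPM in the other wild-type and KI libraries of these times, so that it is no measure of size.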

How the results depend on the processing

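The count of called genes, 1886, was 1578 without the mouse block, 787 in a fit of the 6 wild-type libraries with the block, 3022 with DESeq2, and 239 to 1893 when 1 wild-type mouse was left out. The experiment block, the 9 wild-type libraries, other scalings and other filters gave 1430 to 2061. Called replication genes (2) were 0 in the 6-library fit, 1 in the 9-library fit, 4 with DESeq2 and 0 to 3 with 1 mouse left out. Leaving out 1 mouse gave 7 to 57 mitotic genes, 6 to 14 p53 targets, 4 to 14 glycolysis genes, 2 to 7 hypoxia genes and 6 to 13 cholesterol genes, the lowest of each without mouse 1, and a cholesterol median of 0.64 to 0.85. The 6-library fit called 7 glycolysis and 10 cholesterol genes. Genes with a different change in KI (2) numbered 1 without the block, 8 without a filter, 1 at a minimum count of 50, 127 with DESeq2, 0 to 5 without 1 wild-type mouse and 0 without any 1 KI mouse. Of 217 named calls 175 were made without the block, 148 of 215 in the 6-library fit, 82 of 216 without mouse 1, 176 without mouse 3 and 146 without mouse 5, and all kept their direction in these fits. The causes were not tested.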

Other observations

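Genes of the cytoskeleton and of membrane-binding proteins were called in both directions in the wild-type comparison of 48 h with 24 h, 4 of 30 higher and 3 lower (median 0.13, and 1 and 0 without mouse 1). Beside Lgals1, Tubb6, a beta tubulin, rose from 5.72, 4.39 and 23.7 CPM to 27.7, 24.6 and 78.3 CPM in mice 1, 3 and 5 (log2 fold change 2.1, SE 0.43, edgeR adjusted p 0.00756), and vimentin (Vim) rose from 44.7, 51.5 and 18.5 CPM to 115, 148 and 39.01 CPM (log2 fold change 1.36, SE 0.37, edgeR adjusted p 0.0349) after 304, 298 and 358 CPM in naive cells. Annexin A2 (Anxa2) had 24.4, 18.9 and 15.3 CPM and 41.6, 178 and 28.4 CPM, with the 48 h value of mouse 3 far above the others (log2 fold change 1.72, SE 0.47, edgeR adjusted p 0.0356). The actin-binding genes Cotl1 and Coro1a fell, by 0.64 and 0.38 on the log2 scale. All 5 calls were lost without mouse 1. Those of Vim and Anxa2 were also lost without mouse 3 and that of Coro1a without mouse 3 or 5. Over these fits the edgeR adjusted p was up to 0.106 for Tubb6, 0.207 for Vim, 0.205 for Anxa2 (without mouse 3), 0.0876 for Cotl1 and 0.245 for Coro1a.

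Of 41 genes of the T cell receptor complex and its proximal signalling 2 were called higher and 3 lower (median -0.15), none of 20 genes of MHC class I and antigen processing was called (median -0.05), and of 30 genes of the unfolded protein response 2 were called higher and 1 lower (median -0.05), beside 4.67% of all tested genes called higher and 4.23% lower. None of these genes was called without mouse 1. Malt1, a protease of the pathway from the receptor to NF-kB, rose from 79.8, 89.8 and 101.4 CPM to 155, 233 and 119 CPM (log2 fold change 0.87, SE 0.21, edgeR adjusted p 0.0171), a call lost without mouse 1 or 3 (up to 0.178). Was, an actin regulator, fell from 138, 128 and 122 CPM to 91.3, 89.2 and 84.3 CPM (log2 fold change -0.55, SE 0.10, edgeR adjusted p 0.00294), a call lost without mouse 1 (0.0801). The heat shock gene Hspa1a, whose counts are uncertain because of its near-identical neighbour Hspa1b, rose from 0.0707, 0.0588 and 0.162 CPM to 1.37, 0.655 and 0.979 CPM (log2 fold change 3.44, SE 0.55, edgeR adjusted p 0.00174), and Pon2, a paraoxonase on the antioxidant list, fell from 44.3, 38.7 and 40.4 CPM to 22.5, 21.8 and 22.7 CPM (log2 fold change -0.88, SE 0.11, edgeR adjusted p 3.81e-04). Both calls were also made without each mouse in turn.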
